A study of Mus musculus with 13 samples.

Results

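Described here are 10 genes of secreted proteins, namely Thbs1, Thbs2, Ctgf, Cyr61, Sparc, Postn, Tnc, Fn1, Spp1 and Fndc1. They were chosen by name, as matricellular genes and secreted targets of the transcriptional co-activator YAP, and are 10 of the 25965 gene intervals in the table. All 10 passed the filter on low values (at least 1 read per 1000000 reads, RPM, in at least 3 of 12 libraries), as did 13134 genes in all. Poly(A) RNA of primary mouse embryonic fibroblasts (MEFs), taken from E13.5 embryos, was sequenced in 13 libraries. Cells of the 12 hairpin libraries carried XXist∆A/XPGK X chromosomes, received retroviral hairpins and puromycin selection, and were harvested on day 7. Of the libraries, 12 form 4 groups of 3, namely control hairpin, control hairpin with 5-azacytidine (5-aza, an inhibitor of DNA methylation, given for 24 h from day 3), Setdb1 hairpin, and both Setdb1 hairpin and 5-aza. Replicates A and B of a group carried 1 hairpin (the non-silencing one in controls, shSetdb1.4 in Setdb1 groups), and replicate 1 carried another (against luciferase, or shSetdb1.6). Library titles name replicates A and B only, and the number 1 was assigned here. The remaining library received 5-aza and names no hairpin, so it entered no test. It is labelled PGK, and the study's methods took the PGK alleles from a PGK sample. Its X chromosomes, transduction and selection are not stated in the labels. Per the study's methods, cells given Setdb1 hairpins carried a gene-trap allele of Setdb1 and cells given the non-silencing hairpin were wild type. For cells with the luciferase hairpin no genotype is stated. Labels name neither genotype nor embryo for a library, so hairpin and genotype cannot be told apart, and p-values measure the spread between these libraries.

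On mm10 (GRCm38), Thbs1 lies at chr2:118111876-118127133, Thbs2 at chr17:14665500-14694262, Ctgf at chr10:24595442-24598683, Cyr61 at chr3:145646971-145649985 and Sparc at chr11:55394500-55420080. Postn lies at chr3:54361109-54391034, Tnc at chr4:63959785-64047015, Fn1 at chr1:71585523-71653171, Spp1 at chr5:104435118-104441050 and Fndc1 at chr17:7738569-7827302. Thbs1, Ctgf, Postn and Spp1 are on the plus strand and the other 6 on the minus strand.

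Matricellular proteins are secreted into the matrix and act mainly on cell behaviour rather than as structural scaffold. They bind integrins, syndecans, CD36, CD44 and CD47 on the cell surface, growth factors, and other matrix proteins. In fibroblasts many of them respond to mechanical load. When cells spread on a stiff surface, YAP and its paralogue TAZ (Wwtr1) enter the nucleus and act through TEAD transcription factors, and Ctgf and Cyr61 are the target genes most often used to read that activity.

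Setdb1, the H3K9 methyltransferase that the hairpins targeted, fell from 46.3 ± 0.103 RPM in control cells to 14.1 ± 1.72 RPM in Setdb1 hairpin cells (SD, n = 3 each), and was at 43.4 ± 0.631 and 12.9 ± 2.16 RPM with 5-aza. Total depth implied by the values ran from 41.9 M to 58.8 M reads (M, 1000000) over the 12 hairpin libraries, and was 20.4 M for the one that names no hairpin. Fewer cells of a type and less RNA per cell cannot be told apart in such bulk libraries. At these depths the lowest member value, that of Fndc1 in a Setdb1 library with 5-aza, still rested on 77 reads. All 10 fibroblast markers examined passed the filter, with Col1a1 at 4750 to 11420 RPM and Vim at 4326 to 5248 RPM, although Dcn (4.83 to 15.4 RPM) and Lum (0.338 to 3.75 RPM) were low.

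Promoter sequence was available for 7 of the 10 members, all but Thbs1, Ctgf and Fn1, as RefSeq windows of 300 bases on GRCm38.p6 (250 before the transcription start and 50 from it on). Of these, 3 are shown as examples, and no test below uses them. The window of Cyr61 (chr3:145649936-145650235, minus strand) is given with the letters of the TEAD motif in capitals. The window of Fndc1 (chr17:7827253-7827552, minus strand) and that of Spp1 (chr5:104434861-104435160, plus strand) are given with each CpG in capitals, the dinucleotide at which mammalian DNA is methylated.
Cyr61: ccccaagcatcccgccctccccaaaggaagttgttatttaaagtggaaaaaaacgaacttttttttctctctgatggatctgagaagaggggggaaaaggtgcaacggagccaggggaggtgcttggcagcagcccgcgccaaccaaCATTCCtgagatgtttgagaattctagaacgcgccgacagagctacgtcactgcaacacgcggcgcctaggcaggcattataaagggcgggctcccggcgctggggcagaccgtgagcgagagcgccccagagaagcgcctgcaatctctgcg
Fndc1: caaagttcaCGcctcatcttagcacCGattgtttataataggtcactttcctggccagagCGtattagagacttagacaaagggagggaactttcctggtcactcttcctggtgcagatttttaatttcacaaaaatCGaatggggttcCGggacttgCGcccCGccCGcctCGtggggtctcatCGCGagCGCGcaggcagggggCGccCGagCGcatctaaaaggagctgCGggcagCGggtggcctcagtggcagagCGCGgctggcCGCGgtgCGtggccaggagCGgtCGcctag
Spp1: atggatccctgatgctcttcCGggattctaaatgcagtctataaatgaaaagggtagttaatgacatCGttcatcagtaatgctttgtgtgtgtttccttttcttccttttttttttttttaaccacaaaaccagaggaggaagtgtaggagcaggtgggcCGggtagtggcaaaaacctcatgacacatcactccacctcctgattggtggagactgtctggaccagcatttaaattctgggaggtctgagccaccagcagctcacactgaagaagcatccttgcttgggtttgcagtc
Cyr61 held 1 TEAD match (GGAATG on either strand), beginning 103 bases before the start site, and 20 CpG. This motif occurred in 14.6% of all 32544 windows, and in none of the other members' 6 windows. Neither AP-1 letters (TGANTCA, in 7.79% of all windows) nor a CArG box (1.64%) were in any of the 7 windows. Fndc1 held 25 CpG, more than 81.4% of windows, against a median of 7 over all windows (quartiles 3 and 20). Tnc held 10, Postn 5, Thbs2 and Sparc 4 each, and Spp1 3. TATAAA, on either strand (13.6% of all windows), was in 6 of the 7 windows, all but that of Sparc, and lay on the strand shown 25 bases before the start in Cyr61 and 26 in Postn. These matches describe letters only. Methylation and factor binding were not measured in these libraries.

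The members were among the most abundant messages of the cells. Together they took 3.50% to 4.86% of all reads in genes in the 12 hairpin libraries. Thbs1, which encodes thrombospondin 1, a trimeric glycoprotein that binds CD36 and CD47 and activates latent TGF-beta, ranked 1 among all genes by RPM in every one of these libraries. Fn1, which encodes fibronectin, the fibril-forming ligand of several integrins, ranked 2 or 3. Genes can be compared with each other only per length, and on RPM per kb of exon the order of the mean levels over the 12 libraries was Thbs1 (2420), Sparc (978), Fn1 (833), Ctgf (819), Cyr61 (554), Tnc (399), Spp1 (270.2), Postn (168), Thbs2 (73.5) and Fndc1 (1.11). Among all tested genes with at least 500 bp of exon, Thbs1 ranked 2 to 3 per kb and Fn1 9 to 20. Thbs1 stood clear of the next member, since its lowest library was at 1858 RPM per kb and the highest value of Sparc at 1171. Sparc (839 to 1171), Fn1 (707 to 988) and Ctgf (663 to 945) overlapped on that scale, and so did each further pair of neighbours except Ctgf with Cyr61 (482 to 612) and Thbs2 with Fndc1. Fndc1, a gene of fibronectin type III repeats, was the only member of low level, at 1.48 to 27.3 RPM.

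**Figure D1:**
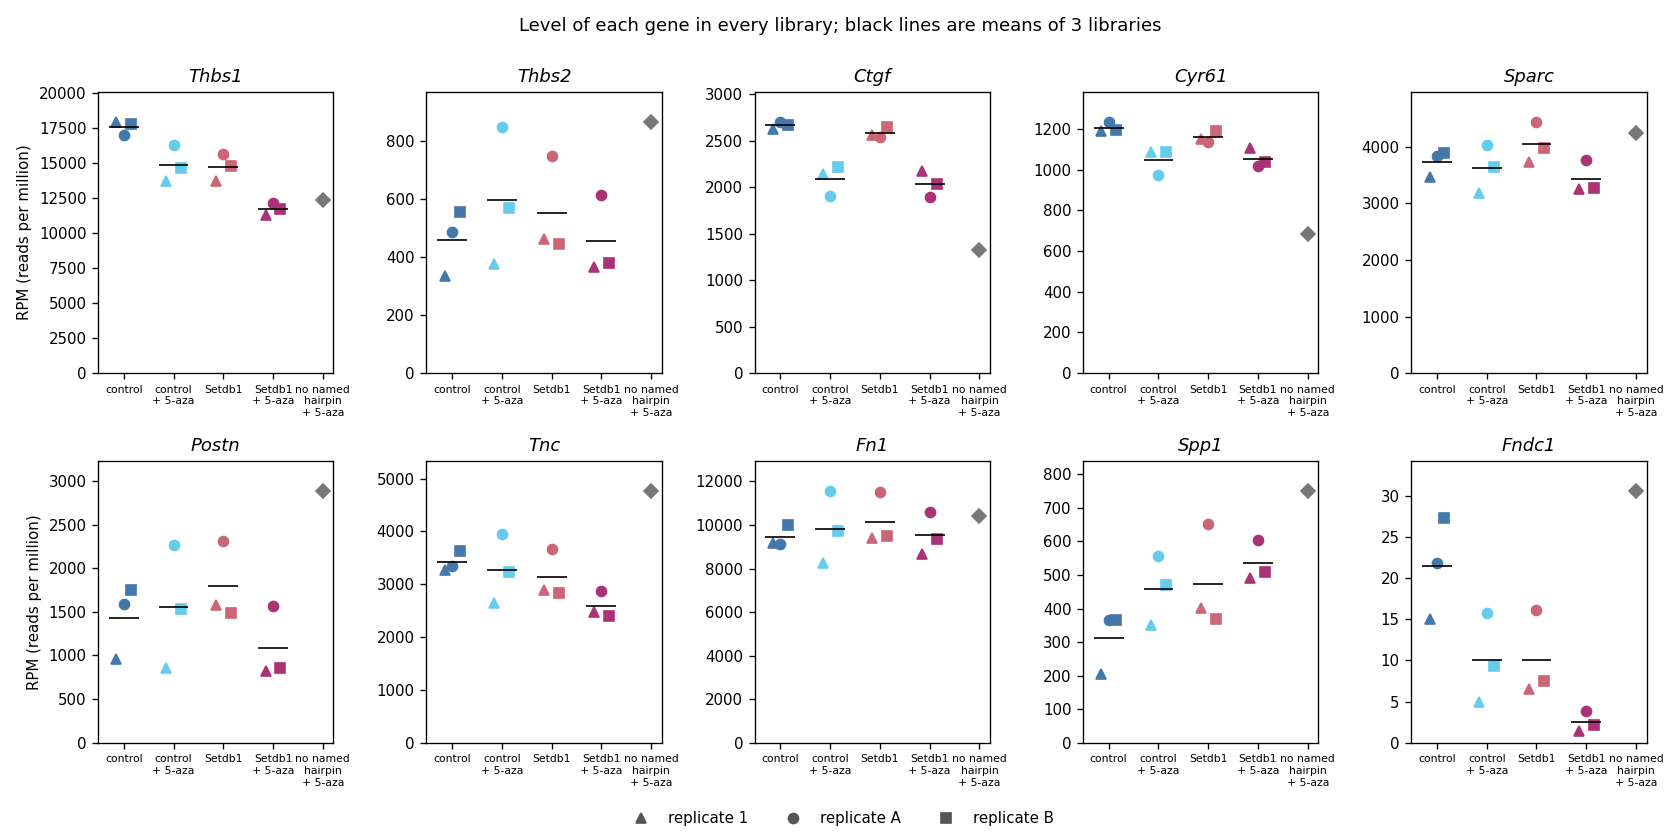
Level of each member in RPM (linear axis from 0) in every library, by group, with the marker shape giving the replicate and the black line the mean of 3 libraries; the grey diamond is the library with no named hairpin. Thbs1 stepped from 17547 to 11713 RPM between the outer groups, Ctgf and Cyr61 were lower in both 5-aza groups, and Thbs2, Postn and Spp1 had wide groups.

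Between Setdb1 and control hairpins without 5-aza, 1 of the 10 members passed the test and it was lower, against 3.4% of all genes tested called lower and 12.4% called in either direction. Of the 10, 3 (Thbs1, Spp1 and Fndc1) had an unadjusted p under 0.05, as did 3621 of the 13134 genes tested. Voom on recovered reads, which weights each value by its depth, also called 1 lower and 0 higher. The share of all genes that voom called is not given here, in this or the later comparisons. Thbs1 was at 17921, 16950 and 17770 RPM in control replicates 1, A and B. It was at 13681, 15625 and 14735 RPM in Setdb1 hairpin replicates 1, A and B. All 3 Setdb1 libraries lay below all 3 controls. The fitted log2 fold change was -0.26 (SE 0.08), a fold of 0.836, with an adjusted p of 0.0494 (limma, Benjamini-Hochberg over 13134 genes). That call sat at the threshold. It was lost when any of 9 of the 12 libraries was left out (all but control hairpin + 5-aza replicates 1 and A and Setdb1 hairpin replicate A), with the weakest value without Setdb1 hairpin replicate 1 (-0.21, adjusted p = 0.193), and lost with no filter on low values (0.23) and with replicates A and B alone (0.362).

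Ctgf and Cyr61, the canonical YAP targets, did not pass between hairpins, and the sign of both differences turned under quantile normalization. Both encode CCN proteins, secreted integrin ligands of the matrix. Ctgf was at 2626, 2702 and 2672 RPM in control replicates 1, A and B, and at 2557, 2537 and 2644 RPM in the Setdb1 hairpin libraries. Those groups overlapped, with a log2 fold change of -0.05 (SE 0.06, adjusted p = 0.671). Cyr61 was at 1188, 1236 and 1194 RPM in the controls and at 1152, 1135 and 1192 RPM with the Setdb1 hairpin. This was again an overlap, with a log2 fold change of -0.06 (SE 0.05, adjusted p = 0.523). With 5-aza in both arms the differences were -0.03 (SE 0.06, adjusted p = 0.743) for Ctgf and 0.01 (SE 0.05, adjusted p = 0.938) for Cyr61.

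Spp1, which encodes osteopontin, an integrin and CD44 ligand of bone and of wounds, was at 205.9, 367.3 and 365.2 RPM in control replicates 1, A and B and at 402, 651 and 369.5 RPM with the Setdb1 hairpin. The groups did not overlap, but they nearly touched, and control replicate 1 was far below the other 2 controls. The log2 fold change of 0.60 (SE 0.25) did not pass (adjusted p = 0.145). Of the exon bases of Spp1, 18.8% are shared with the unconfirmed transcript Gm42793 on the same strand, so reads there are uncertain between them. The sum of 8 osteoblast and cartilage markers was 149 to 155 RPM in control and 187 to 216 RPM in Setdb1 hairpin libraries, with Col2a1 at 35.1 to 81.9, Col10a1 at 20.5 to 53.2, Sox9 at 31.7 to 54.2 and Runx2 at 33.4 to 46.1 RPM over the 12 libraries. The osteoblast genes Bglap and Alpl did not exceed 0.42 RPM. The part of this list in the Spp1 values was not tested.

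Fndc1 was at 15.1, 21.8 and 27.3 RPM in control replicates 1, A and B, and at 6.58, 16.1 and 7.55 RPM with the Setdb1 hairpin. Replicate A overlapped the controls, and the log2 fold change of -1.17 (SE 0.46) missed the threshold (adjusted p = 0.123). Thbs2, the thrombospondin that lacks the TGF-beta activating sequence, Postn, the integrin ligand periostin that supports collagen cross-linking, and Sparc, a collagen-binding calcium protein, had log2 fold changes of 0.26 (SE 0.31), 0.34 (SE 0.35) and 0.12 (SE 0.10). Fn1 was at 0.10 (SE 0.12), and Tnc, the hexameric tenascin of developing and injured tissue, at -0.13 (SE 0.14). Each of these 5 genes had overlapping groups and an adjusted p of 0.471 or more. Over the 10 members the median log2 fold change was 0.025, beside 0.031 over all genes tested.

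**Figure D2:**
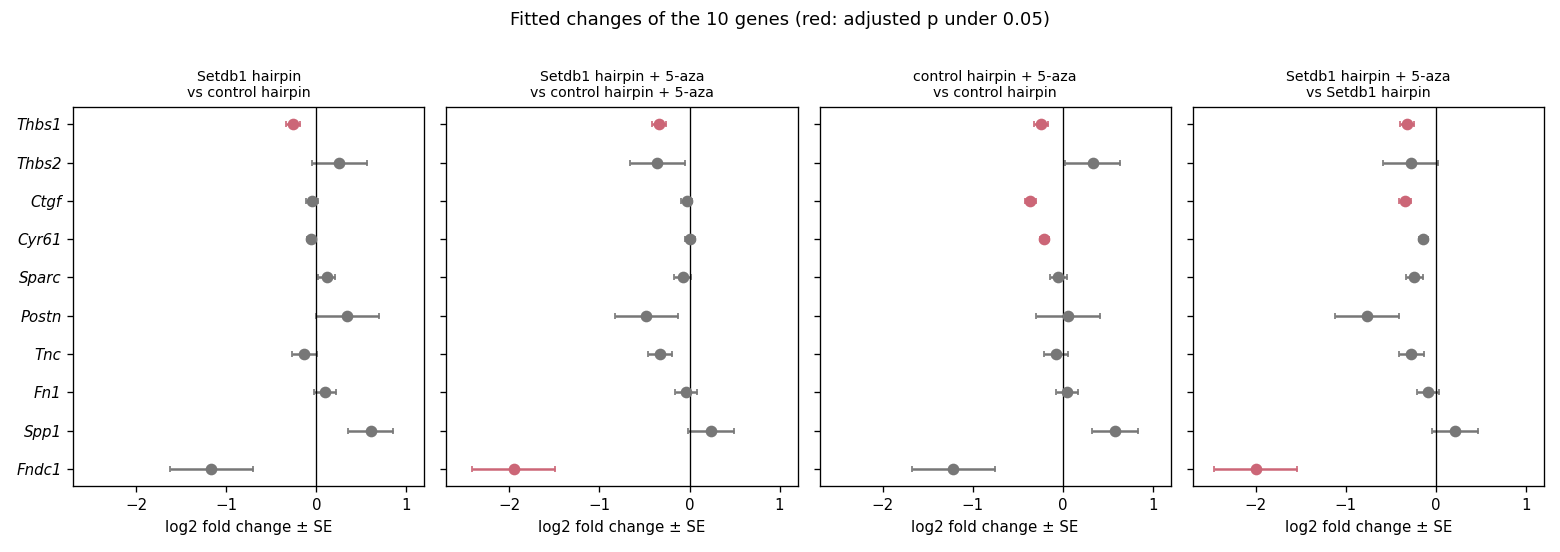
Fitted log2 fold change with its SE for the 10 members in the 4 comparisons (limma, 3 libraries a group), with red points past an adjusted p of 0.05. No member is red on the right of 0, and Fndc1 reaches -1.95 and -2.00 in the comparisons that end in the Setdb1 hairpin with 5-aza.

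With 5-aza in both arms, 2 of the 10 members were lower with the Setdb1 hairpin and 0 higher, against 5.37% of all genes tested called lower and 19.9% called in either direction. Unadjusted, 3 had a p under 0.05 (Thbs1, Tnc and Fndc1), as did 4618 of the 13134 genes tested. Voom called 2 lower and 0 higher. Thbs1 was at 13703, 16232 and 14622 RPM in the control replicates 1, A and B with 5-aza, and at 11283, 12142 and 11714 RPM with Setdb1 hairpin and 5-aza. The 2 sets did not overlap, and the fitted difference was -0.34 on the log2 scale (SE 0.08, adjusted p = 0.0108). Fndc1 was at 4.89, 15.8 and 9.35 RPM in those controls and at 1.48, 3.84 and 2.19 RPM with both treatments. Every library with both was below every control with 5-aza, at a fold of 0.258 (log2 fold change -1.95, SE 0.46, adjusted p = 0.0123). Both calls were lost without Setdb1 hairpin + 5-aza replicate 1, where adjusted p was 0.0532 for Thbs1 and 0.0616 for Fndc1. The call of Thbs1 was also lost with no filter on low values (adjusted p = 0.0844).

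The other members did not pass in that comparison. Tnc came nearest, at 2649, 3949 and 3232 RPM in controls with 5-aza and 2481, 2876 and 2393 RPM with Setdb1 hairpin and 5-aza. Those ranges overlapped through control replicate 1, with a log2 fold change of -0.33 (SE 0.14, adjusted p = 0.109). Without that library the difference was -0.47 and passed (adjusted p = 0.0208). Postn had a log2 fold change of -0.48 (SE 0.35), Thbs2 of -0.36 (SE 0.31), Sparc of -0.07 (SE 0.10), Fn1 of -0.04 (SE 0.12) and Spp1 of 0.24 (SE 0.25), all with overlapping groups. The median over the members was -0.20, beside 0.047 over all genes tested, and 8 of the 10 lay below 0, as did 4820 of the 13134 genes tested.

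5-aza was followed by lower Ctgf in both kinds of cell. In control cells 3 members (Ctgf, Cyr61 and Thbs1) passed as lower and 0 as higher, against 5.34% of all genes tested called lower and 18.8% called in either direction. Unadjusted, 5 had a p under 0.05, these and Fndc1 and Spp1, as did 4473 of the 13134 genes tested. Voom called 4 lower (Fndc1 added) and 0 higher. Ctgf went from the control levels given above to 2141, 1902 and 2211 RPM in replicates 1, A and B. The groups lay well apart, at a fold of 0.780 (log2 fold change -0.36, SE 0.06, adjusted p = 0.00282), and the call held without each of the 12 libraries in turn but was lost under quantile normalization (-0.23, adjusted p = 0.0738). Cyr61 was at 1089, 973 and 1088 RPM with 5-aza. That was below every control (log2 fold change -0.20, SE 0.05, adjusted p = 0.0189), although the call was lost without control replicate A (adjusted p = 0.0736) or control replicate B (0.0565), in a fit of the compared groups alone (0.051) and with replicates A and B alone (0.0531). Thbs1 had a log2 fold change of -0.24 (SE 0.08, adjusted p = 0.0478), and its call was lost without any of 8 of the 12 libraries (all but control hairpin + 5-aza replicate A, Setdb1 hairpin replicates 1 and A, and Setdb1 hairpin + 5-aza replicate A), reaching an adjusted p of 0.154 when control hairpin + 5-aza replicate 1 was the one left out. The call ended too with no filter on low values (0.214) and with replicates A and B alone (0.27).

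The remaining members did not pass in control cells without a block for the pairs of libraries. With each culture (hairpin and label) as a block in limma, Thbs2 (adjusted p = 0.0402) and Spp1 (0.00131) were higher and Fndc1 (0.000683) lower. In that fit 29.7% of all genes were called. The values that follow are from the fit without a block. Fndc1 was lower in each replicate, but 15.8 RPM in replicate A with 5-aza exceeded 15.1 RPM in replicate 1 without it, and the log2 fold change of -1.21 (SE 0.46) had an adjusted p of 0.0853. It passed without control hairpin + 5-aza replicate A (-1.62, adjusted p = 0.0322). Spp1 was at 352, 555 and 471 RPM with 5-aza, higher than its control of the same label in 3 of 3, at a log2 fold change of 0.58 (SE 0.25, adjusted p = 0.128). Spp1 is also typical of macrophages. The sum of 10 macrophage markers was 11 to 11.98 RPM without and 14.3 to 16.6 RPM with 5-aza in control cells, with Ptprc at 0.319 RPM or less and Emr1 and Aif1 at 0.0861 RPM or less in all 12 libraries. Csf1r and Itgam were called higher with 5-aza in control cells, and their part in the Spp1 values was not tested. The log2 fold changes of Thbs2 (0.33, SE 0.31), Postn (0.06, SE 0.35), Sparc (-0.05, SE 0.10), Tnc (-0.08, SE 0.14) and Fn1 (0.05, SE 0.12) were within about 1 SE of 0. Members had a median of -0.06, beside 0.042 over all genes tested.

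In Setdb1 hairpin cells 5-aza was followed by lower values of 3 members (Ctgf, Thbs1 and Fndc1) and higher values of 0, against 7.51% of all genes tested called lower and 28.9% called in either direction. Unadjusted, 5 had a p under 0.05, as did 5448 of the 13134 genes tested. Voom called 3 lower and 0 higher. Across the 4 comparisons 71.6% to 74% of all calls were higher, a share of 48% to 52.3% when each library was centred on its median and of 52% to 55.2% with quantile normalization. Ctgf was at 2178, 1898 and 2033 RPM in replicates 1, A and B with both treatments (log2 fold change -0.34, SE 0.06, adjusted p = 0.00291). This was close to its level in control cells with 5-aza. Thbs1 had a log2 fold change of -0.32 (SE 0.08, adjusted p = 0.0105), with its lowest levels of the study in these 3 libraries. Its call was lost with no filter on low values (adjusted p = 0.0797). Fndc1 fell to a fold of 0.250 (log2 fold change -2.00, SE 0.46, adjusted p = 0.00856). The calls of all 3 held without each of the 12 libraries in turn. Cyr61 was at 1108, 1018 and 1038 RPM, below all 3 libraries without 5-aza, but its log2 fold change of -0.14 (SE 0.05) missed the threshold (adjusted p = 0.0642). It passed when each library was centred on its own median (-0.20, adjusted p = 0.0133), and without Setdb1 hairpin + 5-aza replicate 1 (0.0482) or control hairpin + 5-aza replicate A (0.0261).

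Postn, Sparc and Tnc differed within each pair of Setdb1 hairpin libraries of the same label. Postn was at 1579, 2312 and 1483 RPM in replicates 1, A and B without 5-aza and at 822, 1569 and 859 RPM with it, so the 2 groups overlapped through replicate A while each pair went down. Its log2 fold change of -0.76 (SE 0.35) did not pass (adjusted p = 0.124), and neither did those of Sparc (-0.24, SE 0.10, adjusted p = 0.0795) or Tnc (-0.27, SE 0.14, adjusted p = 0.152). In these cells the libraries with and without 5-aza of the same label deviated together, and with each culture (hairpin and label) as a block in a fit of all 12 libraries 6 members were lower, against 11.9% of all genes tested called lower and 40.2% in either direction in that fit. These were Ctgf, Thbs1, Fndc1, Postn (adjusted p = 0.000578), Sparc (0.00515) and Tnc (0.0265). Thbs2 (-0.28, SE 0.31), Fn1 (-0.09, SE 0.12) and Spp1 (0.21, SE 0.25) passed in neither fit. A blocked fit of the 6 Setdb1 hairpin libraries alone, added after the data were seen, called 8 members lower (Cyr61 and Thbs2 added) and Spp1 higher, against 46.4% of all genes. That fit leaves 2 residual degrees of freedom for each gene. The median over the members was -0.28, beside 0.058 over all genes tested, and 9 of 10 lay below 0, as did 4877 of the 13134 genes tested.

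The members thus differed in how evenly they went with 5-aza across the 6 pairs of libraries that share hairpin and label. Thbs1, Ctgf, Cyr61 and Fndc1 were lower in 6 of 6 pairs. The folds ran from 0.765 to 0.958 for Thbs1, from 0.704 to 0.852 for Ctgf, from 0.787 to 0.961 for Cyr61 and from 0.224 to 0.721 for Fndc1. Sparc, Postn, Tnc and Fn1 were lower in 5 of 6, the exception each time being control replicate A, in which Postn was 1.43-fold and Fn1 1.26-fold higher. Spp1 was lower in 1 of 6 pairs (Setdb1 hairpin replicate A, 0.928-fold). Thbs2 was higher in 3 of 3 control pairs and lower in 3 of 3 Setdb1 hairpin pairs. The share of all genes with such counts of pairs was not computed, so these counts do not set the members apart.

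**Figure D3:**
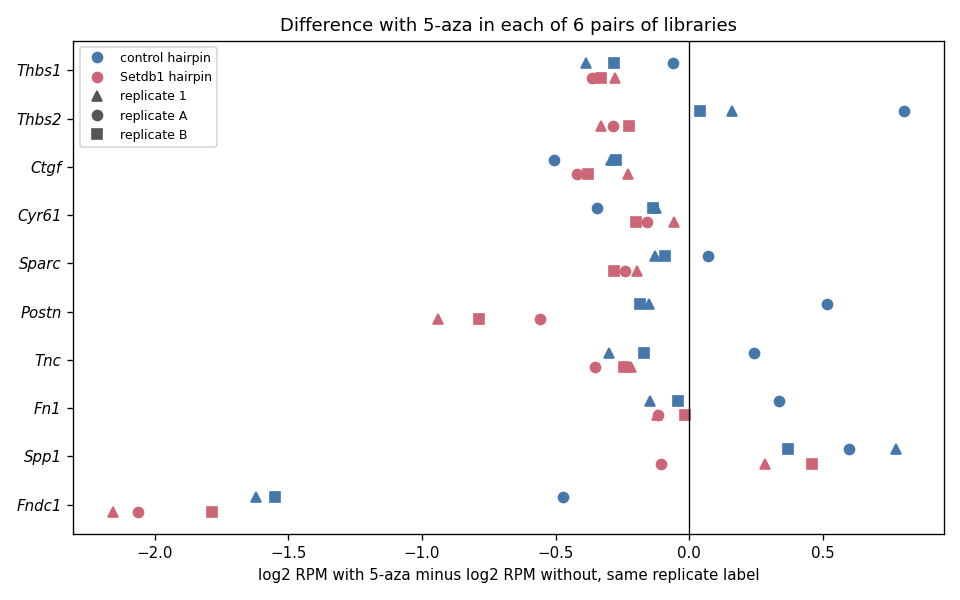
Log2 RPM with 5-aza minus log2 RPM without it, for the 10 members in 6 pairs of libraries of the same hairpin and label (blue control, red Setdb1 hairpin; the shape gives the replicate). All 6 points lie left of 0 for Thbs1, Ctgf, Cyr61 and Fndc1, and the 2 colours of Thbs2 lie on opposite sides.

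No member passed the test of whether the 5-aza difference itself varied with the hairpin (limma interaction), where 0.388% of all genes tested were called, 51 genes. At an unadjusted p under 0.05 the count of members was also 0, beside 701 of the 13134 genes tested. Voom on the recovered reads called 0 members. The largest interaction estimates were those of Postn (-0.82, SE 0.50, adjusted p = 0.794), Fndc1 (-0.79, SE 0.65, adjusted p = 0.796) and Thbs2 (-0.61, SE 0.43, adjusted p = 0.794). Fits with the pairing as a block called Postn alone (adjusted p = 0.0386). Labels pair the control libraries too, but 1 of those pairs correlated at 0.0999, under the limit of 0.1 set for pairing. Both hairpin comparisons and both 5-aza comparisons share libraries, so their values are set side by side and not counted as separate evidence.

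The spread among libraries of a group split the members. Pooled within groups, the SD of log2 RPM was 0.061 for Cyr61, 0.078 for Ctgf and 0.085 for Thbs1. Sparc (0.13), Fn1 (0.17) and Tnc (0.20) were wider, and Spp1 (0.38), Thbs2 (0.46), Postn (0.53) and Fndc1 (0.68) wider still. The last 4 stood at percentiles 99.5 to 99.9 among genes of like level, and Cyr61 at percentile 52.4. Thbs2 ran from 335 to 848 RPM over the 12 libraries, and Postn from 822 to 2312 RPM. Within 3 of the 4 groups (all but control without 5-aza) 8 of the 10 members were highest in replicate A, all except Ctgf and Cyr61. The summed level of the 10 fibroblast markers was likewise highest in those 3 libraries, at 22762 RPM in control with 5-aza (15436 and 19023 in the other 2), 23730 in Setdb1 hairpin (19296 and 18637) and 18704 in Setdb1 hairpin with 5-aza (14570 and 14465). Its part in the spread of the members was not tested, and the share of all genes highest in replicate A was not computed. Ctgf and Cyr61 were the lowest of their groups in those 3 libraries.

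Other marker lists moved with the groups at low level. Of 6 epithelial markers, Krt8 and Krt18 passed the filter and were called higher in all 4 comparisons. The summed level was 2.76 to 3.29 RPM in control, 9.28 to 11.2 with 5-aza, 9.70 to 10.6 with the Setdb1 hairpin and 21.04 to 23.7 RPM with both, so that it was lowest in the group where Thbs1 and Fndc1 were highest and highest where they were lowest. The defining genes Epcam and Cdh1 did not exceed 0.119 RPM. The sum of 6 smooth muscle markers, led by Acta2 at 6742 to 8567 RPM, was 9457 to 11446 RPM over the 12 libraries. The sum of 6 endothelial markers was 7.07 to 8.22 RPM in control and 4.24 to 6.3 with 5-aza, and 6.21 to 6.7 with the Setdb1 hairpin and 4.46 to 5.99 RPM with both, lower with 5-aza as Ctgf and Cyr61 were. The sum of 5 skeletal muscle markers was 3.08 to 3.21 RPM in control and 5.11 to 5.67 with 5-aza, and 2.76 to 3.35 and 3.56 to 4.49 RPM in Setdb1 hairpin cells. That of 5 neural and glial markers was 50.01 to 52.8 RPM in control and 63.9 to 73.5 RPM with the Setdb1 hairpin, and 43.6 to 54.8 and 50.5 to 66.7 RPM with 5-aza. That of 5 adipocyte markers was 9.71 to 30.6 RPM. The part of these cell types in the members' values was not tested.

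Genes of the YAP pathway were then counted, from a list of regulators and targets of which 38 were tested. Without 5-aza, 3 were higher with the Setdb1 hairpin and 0 lower, and with 5-aza in both arms 6 were higher and 3 lower. 5-aza was followed by 1 higher and 4 lower in control cells, and by 2 higher and 5 lower in Setdb1 hairpin cells (10 and 9 with the pairing as a block). The medians were -0.015, 0.034, -0.08 and 0.015, beside 0.031, 0.047, 0.042 and 0.058 over all genes tested. Of all genes tested, 12.4%, 19.9%, 18.8% and 28.9% were called in these comparisons, and 40.2% in the block fit. With each library centred on its median the counts were 2 higher and 1 lower, 3 and 6, 1 and 9, and 1 and 9. Of all genes called with that centring, 48%, 48.7%, 49% and 52.3% were higher. The share of all genes called with it is not given here, so these centred counts do not set the list apart. Leaving out 1 library moved the 4 counts of called genes to 1 to 3, 2 to 15, 3 to 8 and 5 to 13. In the hairpin comparisons these were 1 without control replicate A, control replicate B or Setdb1 hairpin replicate B, and 2 without replicate B of either 5-aza group. Yap1 itself had log2 fold changes of -0.06, -0.06, 0.03 and 0.04 (SE 0.03 each) in the order given, none of which passed, and the values of Wwtr1 did not pass either. Yap1, Wwtr1, Tead1, Tead2, Tead3, Tead4, Vgll3, Axl, Ptpn14 and Ankrd1 were named outside the rule, after their values were seen. Tead1, a DNA-binding partner of YAP, was lower with 5-aza in control (-0.20, SE 0.05, adjusted p = 0.0123) and Setdb1 hairpin cells (-0.14, SE 0.05, adjusted p = 0.0364). Vgll3, a TEAD cofactor, was lower in both as well (-0.11 and -0.13, SE 0.03 each, adjusted p = 0.0382 and 0.0151). The 2 genes higher with 5-aza in Setdb1 hairpin cells, against 5 lower, were Axl (0.30, adjusted p = 0.00321) and Ptpn14 (0.22, adjusted p = 0.0193). Tead2, Tead3 and Tead4 passed with 5-aza in neither kind of cell. Ankrd1, also of this list, had log2 fold changes of 0.14 and 0.35 with 5-aza (SE 0.14 each), and neither passed. Between hairpins with 5-aza in both arms Ankrd1 was called higher (0.45, SE 0.14, adjusted p = 0.0404), with overlapping groups. Nt5e, the surface enzyme CD73, rose with the Setdb1 hairpin from 1.33 ± 0.286 to 6.27 ± 0.812 RPM (2.25 on the log2 scale, SE 0.16, adjusted p = 3.41e-06), and Foxf2, a fibroblast transcription factor, was higher with the hairpin without 5-aza (0.43, SE 0.11, adjusted p = 0.0212) and with it (0.61, SE 0.11, adjusted p = 0.00233).

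Among 36 other matricellular and matrix glycoprotein genes tested, 4 were higher and 4 lower with the Setdb1 hairpin, and 4 were higher and 7 lower when 5-aza was in both arms (12.4% and 19.9% of all genes tested were called). Leaving out 1 library gave 7 to 11 and 9 to 20 calls, the 20 without Setdb1 hairpin + 5-aza replicate A. Smoc2, a relative of Sparc, went from 79.2 ± 10.1 to 136.9 ± 9 RPM (SD, n = 3 each), a log2 fold change of 0.80 (SE 0.10, adjusted p = 0.000355). Ltbp1, which tethers latent TGF-beta to the matrix, went from 360.7 ± 24.2 to 558 ± 16.6 RPM (0.63, SE 0.06, adjusted p = 3.93e-05). Mgp, the matrix inhibitor of calcification, was higher too (0.59, SE 0.11, adjusted p = 0.00403), while Efemp1, a fibulin, went from 120.3 ± 15.9 to 57.1 ± 8.54 RPM (-1.08, SE 0.13, adjusted p = 0.000219) and Tnxb, a tenascin, was lower (-0.62, SE 0.18, adjusted p = 0.0428). With 5-aza in both arms the fibulin Fbln5 (-0.74), the microfibril gene Mfap2 (-0.85) and the CCN gene Wisp2 (-0.62) were lower as well. In control cells 5-aza was followed by 3 higher (Tgfbi 0.81 and Tnxb 0.70 among them) and 4 lower (all genes 18.8%; 3 calls in all without control replicate A or B), among them Smoc1 (-0.80) and Fbln5 (-0.56). In Setdb1 hairpin cells it was followed by 2 higher (Ecm1 0.62 and Tnxb 0.90) and 9 lower, or 4 and 17 with the pairing as a block (all genes 28.9% and 40.2%). Those 9 included Eln, the elastin gene (18.2 ± 6.29 to 6.07 ± 3.15 RPM, -1.66 on the log2 scale, SE 0.33, adjusted p = 0.00403), the tenascin Tnn (-1.64), and Wisp1, a CCN relative of Ctgf and Cyr61 (762 ± 166 to 406.8 ± 89.0 RPM, -0.91, SE 0.20, adjusted p = 0.0072). The median of this list in Setdb1 hairpin cells was -0.13, beside 0.058 over all genes tested.

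Receptors of the members were called in both directions. Of 23 tested, 3 were higher and 3 lower with the Setdb1 hairpin, 2 higher and 3 lower with 5-aza in both arms, 4 higher and 1 lower after 5-aza in control cells, and 5 higher and 4 lower after 5-aza in Setdb1 hairpin cells (6 and 7 with the pairing as a block). All genes were called at 12.4%, 19.9%, 18.8% and 28.9% in these comparisons and 40.2% in the block fit. With median centring the receptors stood at 2 higher and 3 lower, 2 and 5, 1 and 1, and 2 and 5. The share of all genes called with that centring is not given here, for receptors or for the TGF-beta genes below. Leaving out 1 library gave 4 to 6, 5 to 10, 2 to 5 and 4 to 9 calls, the 10 without control hairpin + 5-aza replicate 1, the 2 without control replicate A or B or control hairpin + 5-aza replicate B, and the 4 of the last without Setdb1 hairpin + 5-aza replicate 1. Itga3, a laminin and thrombospondin receptor subunit, was higher in all 4 comparisons, from 15.3 ± 0.276 RPM in control to 38.0 ± 3.55 RPM with both treatments (log2 fold changes 0.64 to 0.66, SE 0.12). Itga4, a fibronectin and osteopontin receptor subunit, was lower with the Setdb1 hairpin, at 49.8 ± 7.42 against 23 ± 9.14 RPM (-1.17, SE 0.30, adjusted p = 0.0257) and again with 5-aza (-1.34). Itga8, which pairs in the receptor of fibronectin, tenascin and osteopontin, was lower in all 4 comparisons (-0.51, -0.58, -0.53 and -0.61 in the order given, SE 0.12 each). Itga1, a collagen receptor subunit, was lower with the hairpin without 5-aza (-0.46, SE 0.09) and with it (-0.585, SE 0.09). It was also lower with 5-aza in Setdb1 hairpin cells (-0.28, SE 0.09). Itga11, another collagen receptor subunit, was lower with 5-aza in Setdb1 hairpin cells (-1.51, SE 0.41, adjusted p = 0.0172). Of 21 TGF-beta signalling genes tested, 2 were higher and 0 lower in each hairpin comparison, and 5-aza was followed by 3 higher and 2 lower in control and by 2 higher and 4 lower in Setdb1 hairpin cells (5 and 7 with the pairing as a block), beside the same shares of all genes. In the hairpin comparison without 5-aza 0 were called without any 1 of the control replicates or without Setdb1 hairpin replicate B, and 0 higher and 1 lower with median centring. With median centring the other 3 comparisons had 2 higher and 1 lower, 2 and 6, and 2 and 8. Bmp4, a secreted ligand, was lower in both (-1.02 and -1.20, SE 0.21 each), and Tgfbr3, the betaglycan co-receptor, higher in both (0.79 and 0.86, SE 0.14 each). Eng, the endoglin co-receptor, was higher with 5-aza in control (0.45, SE 0.06, adjusted p = 0.000637) and Setdb1 hairpin cells (0.60, SE 0.06, adjusted p = 0.000122), and with the hairpin when 5-aza was in both arms (0.33, SE 0.06, adjusted p = 0.00352). Only the calls that the naming rule picked from these lists were followed as 1 library was left out. Among them, this ended the calls of Itga4, Itga8 and Tnxb in the first hairpin comparison and Mfap2 in the second. It also ended those of Nt5e, Tgfbi, Tnxb and Fbln5 with 5-aza in control cells, and of Tnn and Itga11 with 5-aza in Setdb1 hairpin cells.

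**Figure D4:**
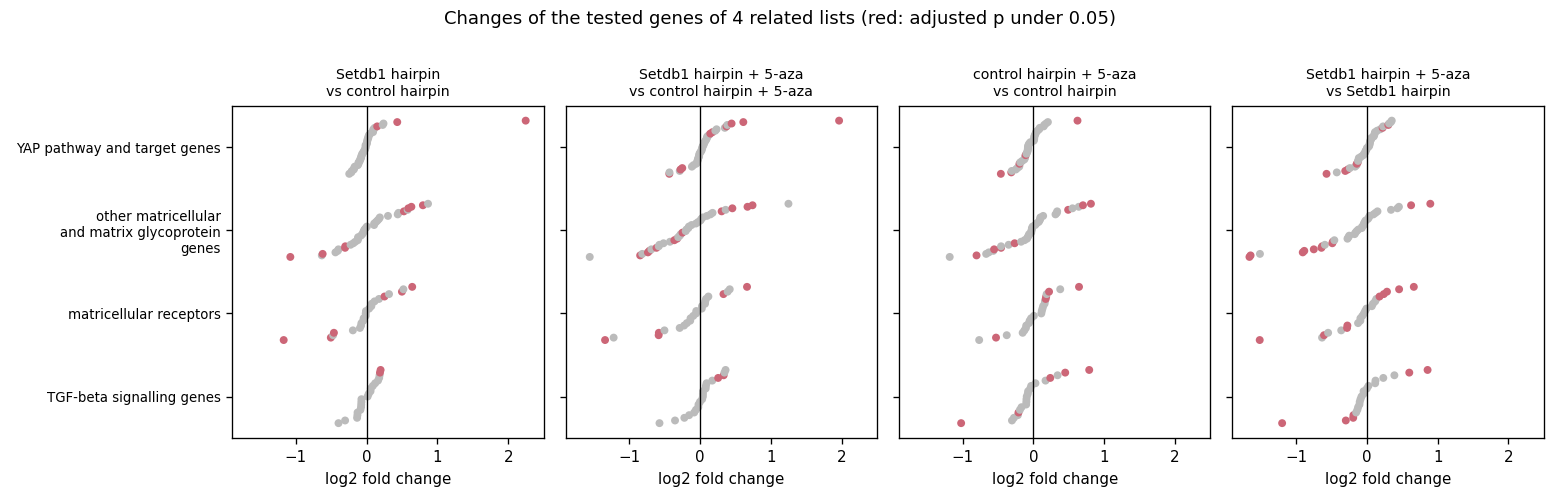
Log2 fold changes of every tested gene of the 4 related lists (38, 36, 23 and 21 genes) in the 4 comparisons, sorted within each list, with red points past an adjusted p of 0.05. Calls lie on both sides of 0 in most panels, and Nt5e is the red point above 2 in the first.

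The single gene nearest to each member in pattern, by the root mean square difference of centred log2 RPM over the 12 hairpin libraries, was also taken. For Ctgf it was Gm15270 (0.051) and for Tnc 8030451A03Rik (0.037). Both are transcripts of the opposite strand that overlap the member's exons, over 23.2% of the exon bases of Ctgf and 2.26% of those of Tnc. The library kit does not mark strand, so reads in those stretches cannot be told apart between the 2 genes. For the others it was 1110067D22Rik for Thbs1 (0.063), Bmf for Thbs2 (0.119), Rnps1 for Cyr61 (0.029), Plod2 for Sparc (0.045), Gm16277 for Postn (0.10), Man1c1 for Fn1 (0.047), Adcy7 for Spp1 (0.14) and Heyl for Fndc1 (0.283). The SD of the members themselves over these libraries ran from 0.101 (Cyr61) to 1.27 (Fndc1), so the differences do not rank the matches. Bmf (mean 0.976 RPM) and Gm16277 (2.03 RPM) were of low level. Postn and Thbs2 were each other's nearest member, at ranks 25 and 50 among all genes tested, and so were Ctgf and Cyr61 (ranks 19 and 859) and Sparc and Fn1 (ranks 147 and 56). Thbs1 shared 3.42% and Fn1 2.5% of its exon bases with opposite-strand transcripts.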

How the data were processed

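The authors deposited 1 table of log2 RPM (reads per 1000000) per gene for 13 poly(A) RNA-seq libraries made with the TruSeq kit, which does not mark strand. CASAVA 1.4 and mm10 are named in the submitters' processing notes, and the aligner and counter are not given in the sources used here. In the deposited log2 values a gene without a read stands at 0.9 read, and 100% of values up to 1000 reads were whole reads (tolerance 0.1), from which reads, RPM and totals (41.9 to 58.8 M, and 20.4 M where no hairpin is named) were computed. These reads went into limma's voom as an alternative only.

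Of 25965 genes, the 13134 that reached 1 RPM in 3 or more of the 12 hairpin libraries were tested with limma 3.58.1 in R 4.3.3 (trend, 1 fit of 4 groups, two-sided, Benjamini-Hochberg, threshold 0.05, 5 contrasts), checked on simulated data. Groups came from the labels, and the library with no named hairpin was left out of every test. Other values were computed with Python 3.11.15, numpy 2.4.6 and pandas 2.3.3, and drawn with matplotlib 3.10.9. Exon lengths and overlaps came from GENCODE M21, which held 96.4% of the gene IDs. Alternatives were other filters and pseudocounts, median centring, quantile normalization, voom, fits of fewer libraries, each library left out, and a replicate block (the label for hairpin contrasts, the culture of 1 hairpin and label for 5-aza contrasts). The label 1 was assigned here, so the block for hairpin contrasts joins the luciferase and shSetdb1.6 libraries by that number alone.

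The members and lists were chosen with earlier results of these data known. All members were named; from the other lists, up to 5 called genes with the largest rise and fall in each contrast whose groups did not overlap; and for each member the 1 gene of nearest pattern. A gene that the rule names is not reported here.

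Deviations from the group means of libraries with the same label correlated at 0.472, 0.634 and 0.413 between Setdb1 hairpin cells with and without 5-aza, which were taken as paired. In control cells they were 0.586, 0.149 and 0.0999, under the limit of 0.1 in 1 pair.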

Additional observations from a re-analysis of the deposited data

Results flagged for a closer look

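Thbs2 was higher with 5-aza in 3 of 3 control pairs and lower in 3 of 3 Setdb1 hairpin pairs. The difference between the responses, -0.61 on the log2 scale (SE 0.43), was tested as an interaction in limma and did not pass (adjusted p = 0.794).

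The library that names no hairpin, given 5-aza, which entered no test, lay above all 6 control hairpin libraries for 6 members. Thbs2 (864.7 RPM), Postn (2880 RPM), Tnc (4757 RPM), Spp1 (749.1 RPM) and Fndc1 (30.51 RPM) were also above all 12 hairpin libraries, and Sparc (4247 RPM) was above the controls alone. Ctgf (1321 RPM) and Cyr61 (684.1 RPM) were below all 12, and Thbs1 (12347 RPM) was below all 6 controls. This is 1 library of 20.4 M reads, so these values have no replicate. The share of all genes outside the same ranges was not computed, so these counts do not set the members apart. It is labelled PGK, so cell source, transduction, selection and hairpin cannot be told apart in its differences from the hairpin libraries. In this library the sum of the macrophage markers was 126.2 RPM, against 11 to 16.6 RPM in the 12 others. That of the fibroblast markers was 27194 RPM, against 14465 to 23730 RPM. That of the smooth muscle markers was 8425 RPM, against 9457 to 11446 RPM. Their part in the members' values was not tested.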

How the results depend on the processing

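Of the alternatives for member calls, 171 kept the call and 39 lost it, and of those for values not called 886 stayed, 26 passed and 28 turned sign. Members called between Setdb1 and control hairpins (1) became 0 with no filter, with log2(RPM + 1), with log2(RPM + 0.1), with quantile normalization, in a fit of only the groups compared and with replicates A and B only. With 5-aza in both arms (2) the count was 1 with no filter and 1 with quantile normalization. For 5-aza in control cells (3) it was 1 with quantile normalization, with only the groups compared and with A and B only. Quantile normalization sets Thbs1 to 0 by its construction, since it ranked 1 in every library. Otherwise the cause was not tested. Leaving out 1 library gave 0 to 1, 0 to 3, 1 to 4 and 3 to 5 calls in the 4 comparisons and 0 to 0 for the interaction, with the highest counts without control hairpin + 5-aza replicate 1 (3), control hairpin + 5-aza replicate A (4) and Setdb1 hairpin + 5-aza replicate A (5).

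With the replicate block the counts were 3 between hairpins (Fndc1 lower and Spp1 higher added; 18.2% of all genes called), 3 with 5-aza in both arms (Tnc lower added; 28.6%), 6 for 5-aza in control cells (Thbs2 and Spp1 higher and Fndc1 lower added; 29.7%), 6 in Setdb1 hairpin cells (9 in the blocked fit of those 6 libraries alone) and 1 for the interaction (Postn lower; 1.29%). Only in Setdb1 hairpin cells were all 3 correlations of same-label libraries over 0.1. Across hairpins they were 0.0979, 0.19 and -0.47 without 5-aza and 0.484, 0.686 and -0.0197 with it.

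Values that turned sign were not called under any of these settings. With quantile normalization Ctgf was 0.089, 0.054 with 5-aza and -0.034 for the interaction, Cyr61 0.036 and -0.013 (interaction), Tnc 0.074 (5-aza in control), and Fn1 0.066 (with 5-aza), -0.066 (5-aza in control) and 0.066 (interaction). Median centring gave Cyr61 -0.054 with 5-aza. Replicates A and B only gave -0.009 for the interaction of Ctgf, -0.002 for Cyr61 with 5-aza, 0.037 for Tnc with 5-aza in control and 0.012 for the interaction of Setdb1. Leaving out 1 library gave, between hairpins with 5-aza, -0.098 to 0.016 for Ctgf, -0.047 to 0.034 for Cyr61, -0.164 to 0.007 for Sparc and -0.154 to 0.087 for Fn1. For 5-aza in control cells it gave -0.130 to 0.042 for Sparc, -0.265 to 0.433 for Postn, -0.220 to 0.068 for Tnc and -0.073 to 0.168 for Fn1. In Setdb1 hairpin cells it gave -0.163 to 0.008 for Fn1 and -0.234 to 0.014 for Setdb1, and for the interaction -0.049 to 0.065 for Ctgf and -0.141 to 0.107 for Setdb1.

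Over all genes, calls ranged from 470 to 2388, 1403 to 3751, 1532 to 3902 and 2306 to 6092 in the 4 comparisons and from 8 to 169 for the interaction across the settings other than leaving out 1 library, against 1630, 2609, 2471, 3792 and 51. Without 1 library they ranged from 721 (without Setdb1 hairpin replicate 1) to 1832, 1279 (Setdb1 hairpin + 5-aza replicate 1) to 3428, 1260 (control replicate B) to 2718, 2191 (Setdb1 hairpin + 5-aza replicate B) to 4193, and 29 to 43. Fewest reads among the members were those of Fndc1, at 77 to 192 with both treatments. Its SD of log2 RPM was 0.69 there, and 0.43 to 0.85 in the other groups.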
